A study of Mus musculus with 8 samples.

Results

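SR proteins and hnRNPs are the main RNA-binding families that decide which exons enter an mRNA, and their footprints by ribosomes were compared between METTL5 knockout and wild-type mouse embryonic stem cells. Members were all gene symbols that begin with Hnrnp or with Srsf and a number, leaving out Hnrnpa2b1 and pseudogene symbols, with a summed Ribo-seq expected count of at least 40. This gave 29 of the 23845 symbols per table, 10 SR protein genes and 19 hnRNP genes. Srsf12, with a summed count of 14.0, fell under the minimum, and the lowest member, Hnrnph3, had 1591. The rule did not use the genotype difference, but it was set with earlier results of these data known.

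Ribo-seq sequences the mRNA fragments that ribosomes protect, so its counts follow both the amount of an mRNA and the number of ribosomes on it. The series holds METTL5 KO and WT embryonic stem cells (mESC) at passages 5 to 10, with 2 KO and 2 WT Ribo-seq libraries and 2 KO and 2 WT RNA-seq libraries. METTL5 is the enzyme that places N6-methyladenosine on 18S ribosomal RNA. The sources used here do not say how the knockout was made, how many KO clones there were or whether replicates came from separate cultures, and the p-values therefore cover only library-to-library spread, which may be technical. In bulk samples, fewer cells of a type and less RNA per cell cannot be told apart.

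SR proteins pair RNA recognition motifs with a tail rich in arginine and serine, bind exonic enhancers and mostly promote the use of an exon. hnRNPs coat nascent transcripts through RNA recognition motifs or KH domains, often carry glycine-rich tails, and mostly oppose exon use when bound nearby. Many genes of both families control their own level through exons that send the transcript to nonsense-mediated decay, and stem cells express the families strongly.

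The tails are visible in the coding sequences from which the footprints come. The 4 stretches below show the 30 consecutive codons richest in arginine and serine of 3 SR genes high in these codons and of Srsf9, which is low, with arginine and serine codons in capitals (GENCODE M21, GRCm38, coding strand).
Srsf2: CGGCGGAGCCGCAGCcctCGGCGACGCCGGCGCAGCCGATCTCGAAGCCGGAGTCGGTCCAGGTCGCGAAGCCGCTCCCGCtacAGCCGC
Srsf7: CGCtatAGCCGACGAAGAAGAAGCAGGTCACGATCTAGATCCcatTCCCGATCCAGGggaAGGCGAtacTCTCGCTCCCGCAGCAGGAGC
Srsf4: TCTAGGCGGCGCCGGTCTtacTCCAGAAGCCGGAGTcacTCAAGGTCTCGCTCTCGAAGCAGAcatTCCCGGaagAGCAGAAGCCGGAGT
Srsf9: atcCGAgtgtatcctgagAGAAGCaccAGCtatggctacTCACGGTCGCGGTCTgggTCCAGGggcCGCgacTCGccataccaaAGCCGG

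In Srsf2 28 of the 30 codons are arginine or serine codons, in Srsf7 and Srsf4 26 each, and in Srsf9 15. Srsf2 (chr11:116849901-116853094) and Srsf7 (chr17:80200080-80207307) are minus-strand genes, and Srsf4 (chr4:131873617-131901706) and Srsf9 (chr5:115327177-115333080) are plus-strand genes. The glycine-rich tails of the hnRNPs with the largest positive fold changes, Hnrnpa0 and Hnrnph3, are shown in the same way, with glycine codons in capitals.
Hnrnpa0: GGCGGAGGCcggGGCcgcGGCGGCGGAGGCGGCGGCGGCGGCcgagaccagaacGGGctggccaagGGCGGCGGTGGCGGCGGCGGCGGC
Hnrnph3: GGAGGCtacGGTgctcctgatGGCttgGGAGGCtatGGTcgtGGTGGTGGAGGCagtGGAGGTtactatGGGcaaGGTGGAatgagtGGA

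Hnrnpa0 (chr13:58125879-58128556) and Hnrnph3 (chr10:63014664-63024217) are minus-strand genes, with 21 and 17 glycine codons among the 30 shown. Over whole coding sequences, arginine and serine made up 22.1% to 45.7% of codons in the 10 SR genes, with a median of 38.0%, and 10.1% to 18.2% in the 19 hnRNP genes, with a median of 14.0%. The ranges did not overlap. Glycine codons made up 3.82% to 14.1% in SR genes and 7.03% to 27.5% in hnRNP genes, and these ranges overlapped. Hnrnpa0, Hnrnpa1, Hnrnpa3 and Hnrnph3 all stood above 24% glycine codons.

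**Figure D1:**
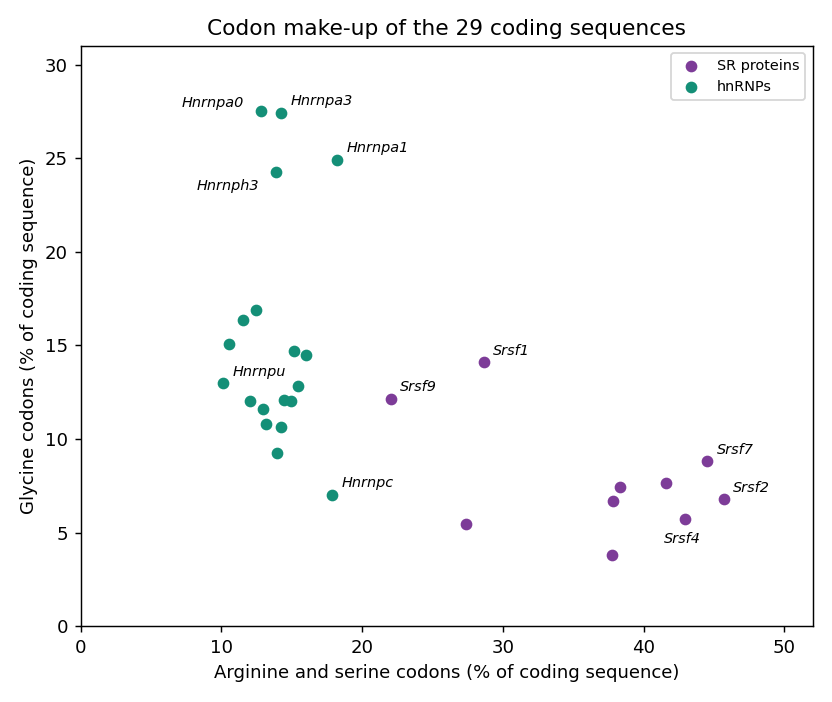
Each point is 1 of the 29 coding sequences, with the share of arginine and serine codons (% of codons) on the horizontal axis and of glycine codons on the vertical axis. SR genes lie between 22.1% and 45.7% on the horizontal axis, to the right of every hnRNP gene, and the hnRNP A genes and Hnrnph3 stand at the top.

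The Ribo-seq tables held 8401463 to 11487964 expected counts per library, so that 3 counts in a library corresponded to 0.261 to 0.357 CPM (expected counts scaled to the same library total). These floors cover counting error only. Footprints on Mettl5 stood at 4.43 ± 0.504 CPM in KO and 43.6 ± 3.37 CPM in WT (SD, n = 2 each), and fell by 3.27 on the log2 scale in KO (edgeR adjusted p = 0.00131). All 10 stem cell markers examined were present, with sums of 7207 and 7361 CPM in KO and 5753 and 7478 CPM in WT. The 10 fibroblast markers summed to 306 and 407 CPM in KO and 73.6 and 130 CPM in WT, with Lum and Fap at 0 in every library, and the 8 endoderm markers to 35.3 and 38.6 CPM in KO and 116 and 176 CPM in WT. The stem cell sums overlapped between genotypes, and the fibroblast and endoderm sums did not. Col1a1 (211.6 and 274 CPM in KO, 70.9 and 23.9 CPM in WT) and Col1a2 carried most of the fibroblast sum, while Thy1 and Pdgfra were lower in both KO libraries. The part of these markers in the results below was not tested.

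The families were abundant in footprints. The 29 genes together took 1.35% and 1.40% of all counts in KO and 1.54% and 1.55% in WT. With Rn45s, the ribosomal RNA precursor that took 10.6% and 15.2% of KO and 7.58% and 10.9% of WT counts, left out of the totals, the shares were 1.56% and 1.59% in KO and 1.67% and 1.74% in WT. Both KO libraries lay below both WT libraries on either scale. SR genes summed to 2605 ± 262 CPM in KO and 2939 ± 310 CPM in WT, where libraries overlapped, and hnRNP genes to 11121 ± 64.7 CPM in KO and 12529 ± 386 CPM in WT, where they did not (SD, n = 2 each).

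Levels were compared between genes as CPM per kb of the deposited effective length, averaged over the 4 libraries of both genotypes with the SD over them. As the tables divide the counts, Hnrnpa1, which represses exons and shuttles to the cytoplasm, had the highest level with 1362 ± 189 CPM per kb, followed by Hnrnpk, a KH-domain protein that binds C-rich RNA, with 636 ± 55.6. Hnrnpl, Hnrnpf, Hnrnpab and Hnrnpu came next, at 477 ± 30.7, 455 ± 72.4, 447 ± 55.5 and 418 ± 50.5 CPM per kb, and neighbours among these did not differ beyond their spread. Srsf3, the smallest SR protein and an adaptor for mRNA export, was the highest SR gene at 239 ± 31.1 CPM per kb. Srsf4 (24.7 ± 5.03) and Hnrnph3 (18.5 ± 3.04) were low, and Hnrnpr, between 11.7 and 12.5 CPM per kb in the 4 libraries, was the lowest. This order depends on how counts of near copies were divided. In CPM not divided by length, Hnrnpa3 with the pseudogene symbol that shares most of its sequence reached 2423 to 2942 per library. Hnrnpa1 had 1479 to 2052 CPM on that scale. No level per kb was computed for the sum, so these values do not show which would rank higher per kb. Per kb of coding sequence, a measure added after the values were seen, Hnrnpa1 and Hnrnpk had the highest listed levels, 1639 and 1287 CPM per kb, Srsf3 was next with 1257, and Hnrnpul1 came last with 35.5.

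**Figure D2:**
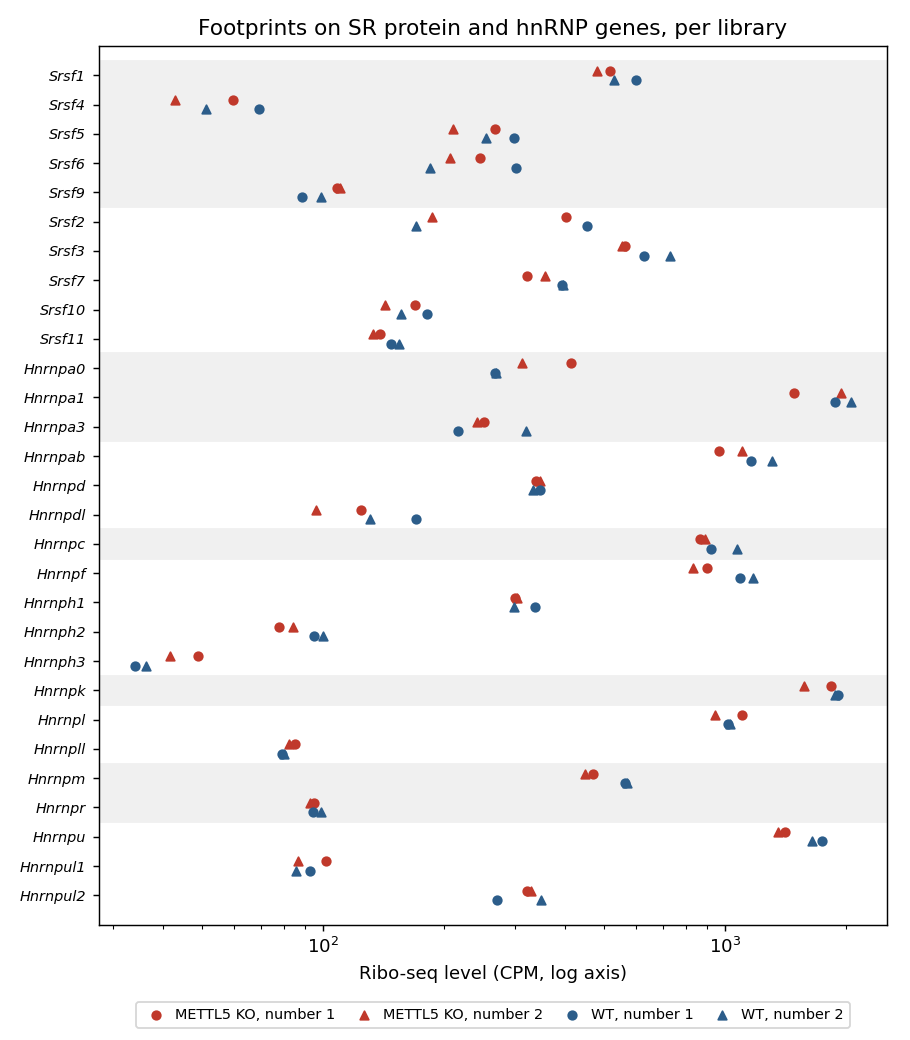
Ribo-seq level in CPM (log axis) of each gene in every library, with METTL5 KO in red above WT in blue and the library number as the marker shape. Shading separates the subfamilies, and the libraries of Srsf2 separate by number and not by genotype. Those of Srsf4, Srsf5, Srsf6, Srsf10, Hnrnpa1, Hnrnpul1 and Hnrnpul2 also do, with smaller differences between the numbers.

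Whether an SR or hnRNP gene was called between KO and WT footprints depended on whether the library number entered the fit. Without it, no member was called. Of 29 genes tested, 0 had an adjusted p below 0.05 in edgeR's quasi-likelihood test with Benjamini-Hochberg adjustment, against 2.44% of all 12315 genes tested (1.83% higher and 0.617% lower in KO). With the number as a block, 4 members were called, 13.8% of them against 24% of all genes: Hnrnpdl, Hnrnpa0, Hnrnph3 and Hnrnpf. Same-numbered KO and WT Ribo-seq tables share a tag in their deposited names that has the form of a month and a day. The labels do not say what it stands for. DESeq2 and limma-voom, also without the number, called 0, and 3 members had an unadjusted p below 0.05, against 19.4% of all genes. The fitted differences were small: 21 had negative and 8 positive log2 fold changes of KO over WT, against 49.2% negative among all genes. The median was -0.14 over the members and 0.01 over all genes tested, and leaving out WT replicate 1 or KO replicate 2 brought the members' median to -0.08.

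For 28 of the 29 genes the 95% interval lay within 1 log2 unit of 0, that is within a 2-fold change either way, and Srsf2 was the exception. In 12 members both KO libraries lay below both WT libraries, against 25.5% of all genes, and in 4 both lay above, against 24.3% (49.8% of all genes did not overlap in either direction). These were 41.4% and 13.8% of the members. With Rn45s left out of the totals, 10 members lay below and 6 above, against 2587 and 3552 of the 12315 genes. With the libraries compared within each number, 16 members were lower in KO in both comparisons (36.6% of all genes) and 5 were higher in both (34.7%). The larger difference between replicates exceeded the difference of KO and WT means in 16 members.

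**Figure D3:**
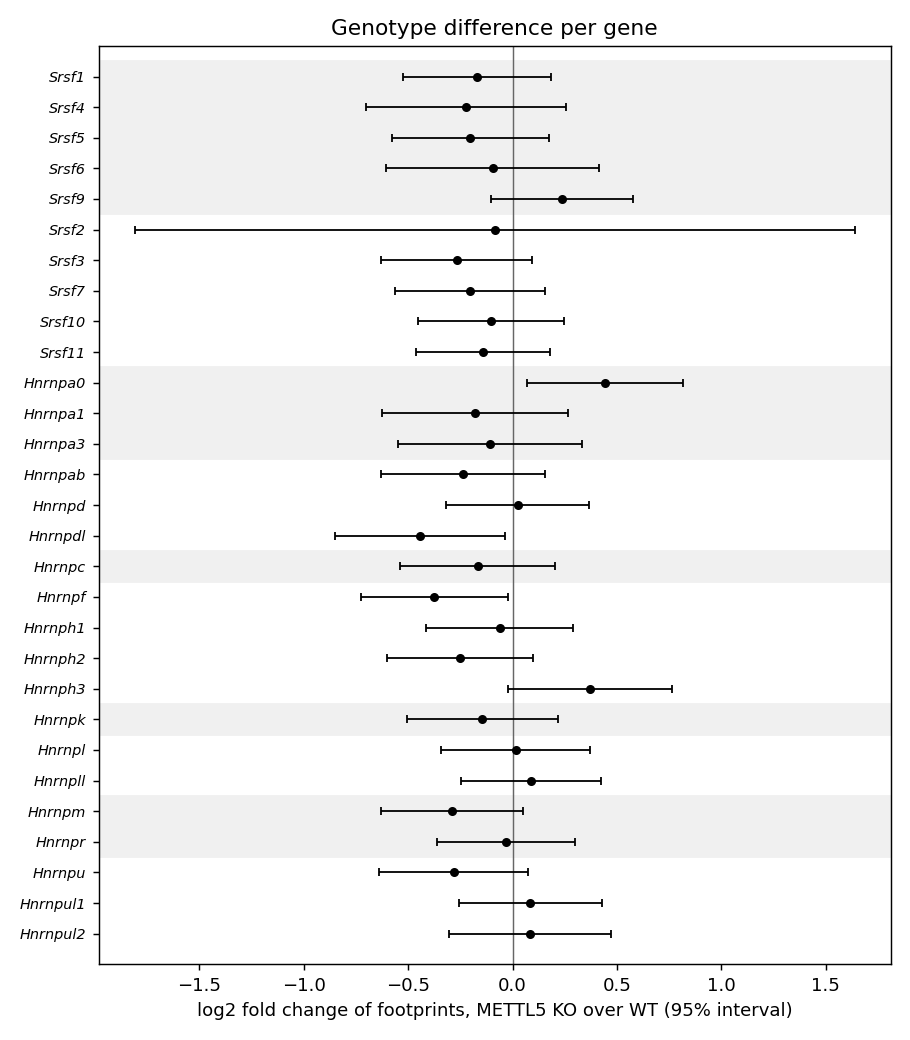
Fitted log2 fold change of footprints, METTL5 KO over WT, with its 95% interval, for the 29 genes in subfamily order. Most points lie left of 0 with intervals that reach it, and the interval of Srsf2 is the widest, from -1.81 to 1.64.

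Among SR proteins, 9 of 10 had negative fold changes and 4 had all KO libraries below WT. Srsf3 showed the most negative value, with 564 and 553 CPM in KO and 628 and 728 CPM in WT. Its groups did not overlap, and the log2 fold change was -0.27 (SE 0.16, edgeR adjusted p = 0.408). Srsf7, another shuttling SR protein, had 322 and 355 CPM in KO and 393 and 395 CPM in WT, again without overlap (log2 fold change -0.20, SE 0.16, adjusted p = 0.536). Srsf1, a founding member of the family, had 516 and 479 CPM in KO and 601 and 528 CPM in WT, a narrow separation (-0.17, SE 0.16, adjusted p = 0.606). Srsf11 separated as well, with 138 and 133 CPM in KO and 147 and 155 CPM in WT.

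Srsf9, with the fewest adjacent arginine and serine codons of the SR genes (9 pairs), was the only SR gene with a positive value. It had 108 and 110.0 CPM in KO and 88.3 and 98.7 CPM in WT, without overlap (log2 fold change 0.24, SE 0.15, adjusted p = 0.438). For Srsf10, a splicing repressor when dephosphorylated, and for Srsf4, Srsf5 and Srsf6 the genotypes overlapped. Their log2 fold changes were -0.10, -0.23, -0.20 and -0.10.

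Among the hnRNP A genes, Hnrnpa0, which binds AU-rich elements in mRNAs, had the largest positive value of all members. It had 413 and 312 CPM in KO and 268 and 269 CPM in WT. Both KO libraries were higher, and the log2 fold change of 0.44 (SE 0.16, unadjusted p = 0.0249, edgeR adjusted p = 0.189) did not pass the test, and did with the block (0.43, adjusted p = 0.00229). Without KO replicate 1 it was 0.28. Hnrnpa1 had 1479 and 1938 CPM in KO and 1869 and 2052 CPM in WT, with overlapping groups (-0.18, SE 0.20).

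Hnrnpdl, a relative of the AU-rich element binding protein AUF1 that Hnrnpd encodes, had the most negative value of all members. Its level was 124 and 95.9 CPM in KO and 170 and 131 CPM in WT, without overlap. The log2 fold change was -0.45 (SE 0.18, unadjusted p = 0.0354, adjusted p = 0.220), and with the block it was -0.44 (adjusted p = 0.00104). On unfitted log2 CPM the difference of KO and WT was -0.46 within number 1 and -0.45 within number 2. Without WT replicate 1 the fitted value was -0.24, and Hnrnpf, at -0.42, was then more negative. Hnrnpd itself had 337 and 346 CPM in KO and 347 and 333 CPM in WT, with a log2 fold change of 0.02 and an interval from -0.32 to 0.37. Hnrnpab had 966 and 1102 CPM in KO and 1158 and 1308 CPM in WT, separated by a narrow gap (-0.24, SE 0.17, adjusted p = 0.505).

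The F and H proteins, which bind runs of G in RNA, went in both directions. Hnrnpf had 899 and 829 CPM in KO and 1090 and 1168 CPM in WT, without overlap (log2 fold change -0.38, SE 0.16, unadjusted p = 0.0394, adjusted p = 0.231, and 0.0343 with the block). Hnrnpf lies on chromosome 6, where the median of all 536 tested genes was -0.38, and with chromosome medians removed its value was 0.01 (adjusted p = 0.993). Hnrnph3, the lowest of the group, had 48.8 and 41.5 CPM in KO and 33.9 and 36.3 CPM in WT, without overlap (0.37, SE 0.17, adjusted p = 0.283, and 0.0292 with the block). Hnrnph2, on the X chromosome, had 77.5 and 84.1 CPM in KO and 94.5 and 100.04 CPM in WT, without overlap (-0.25, adjusted p = 0.421), while Hnrnph1 overlapped between genotypes (-0.06).

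Of the other hnRNPs, Hnrnpu, a chromatin-bound protein that anchors Xist RNA, and Hnrnpm, which binds GU-rich RNA, were lower in both KO libraries. Hnrnpu had 1405 and 1349 CPM in KO and 1735 and 1643 CPM in WT (log2 fold change -0.28, SE 0.16, adjusted p = 0.375). Hnrnpm had 468 and 448 CPM in KO and 562 and 569 CPM in WT (-0.29, SE 0.15, adjusted p = 0.334). Hnrnpc, which binds U tracts, and Hnrnpk separated in the same direction with values of -0.17 and -0.14, and neither passed the test. The CA-repeat binding proteins Hnrnpl and Hnrnpll had 0.01 and 0.09, where Hnrnpll was slightly higher in both KO libraries (85.0 and 82.3 CPM in KO and 79.0 and 79.7 CPM in WT), and Hnrnpul1, Hnrnpul2 and Hnrnpr lay between -0.03 and 0.09.

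Besides Hnrnpf, Srsf1, Srsf2, Hnrnpab and Hnrnph1 lie on a chromosome with a negative median over all its tested genes, chromosome 11 (-0.25 over 999 genes). With chromosome medians removed the sign turned for all 4, to 0.085 for Srsf1, 0.17 for Srsf2, 0.018 for Hnrnpab and 0.19 for Hnrnph1. The 5 members on chromosomes 6 and 11 had a median of -0.17, and the 24 others had a median of -0.13, with 16 of them negative. With chromosome medians removed the median of all members was -0.13.

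Srsf2, which marks nuclear speckles, differed more between library numbers than between genotypes. It had 187 CPM in KO and 170 CPM in WT in the libraries numbered 2, and 402 CPM in KO and 452 CPM in WT in those numbered 1. The genotypes overlapped and the numbers did not. In a fit with number and genotype together, a comparison added after the values were seen, Srsf2 was lower in number 2 by a log2 fold change of -1.21 (SE 0.12, edgeR adjusted p = 3.32e-21, n = 2 per number).

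Srsf6 (-0.43, SE 0.12, adjusted p = 0.00422), Srsf4 (-0.42, SE 0.13, adjusted p = 0.0128) and Hnrnpdl (-0.33, SE 0.11, adjusted p = 0.0336) were also lower in the libraries numbered 2 by the same edgeR fit. These 4 genes are 13.8% of the members, near the 12.2% of all genes called in that comparison. All 4 were lower in number 2, and so 13.8% of the members, against 6.28% of all genes. Over all genes, 773 of the 1506 called were lower in number 2. Opposite the exons of Srsf2 lie Mettl23 and Mfsd11, with 460 and 288 overlapping exon bases. Their footprints were low beside those of Srsf2: Mettl23 had 3.92 CPM in KO and 3.09 CPM in WT in number 2 and 6.44 CPM in KO and 5.45 CPM in WT in number 1, and Mfsd11 stayed between 24.4 and 38.0 CPM.

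**Figure D4:**
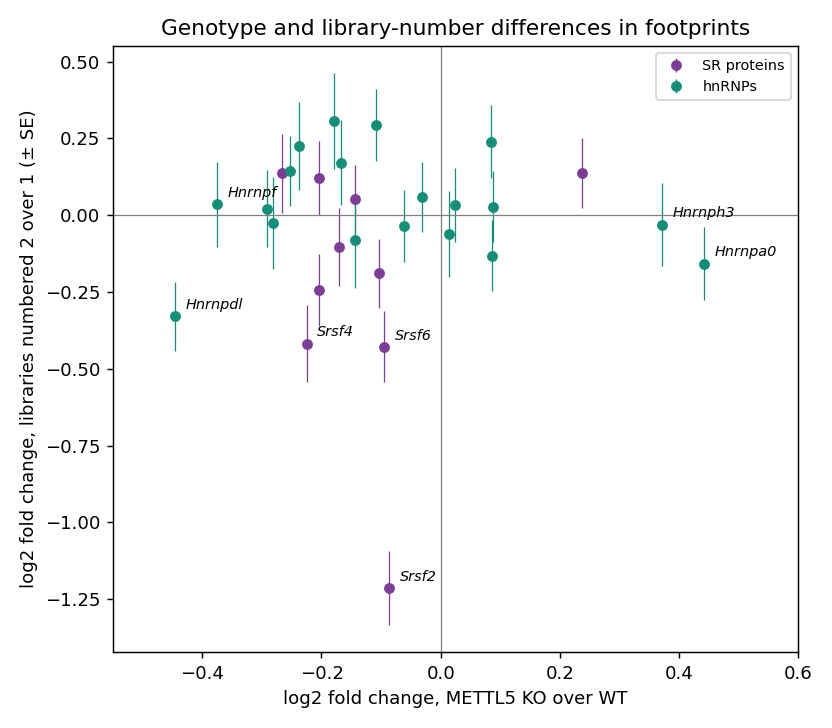
Log2 fold change of footprints of METTL5 KO over WT (horizontal) against that of the libraries numbered 2 over those numbered 1 (vertical, with SE) for the 10 SR and 19 hnRNP genes. Srsf2 stands apart at -1.21 on the vertical axis and near 0 on the horizontal one.

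The counts of 2 members rest on sequence they share with transcribed pseudogenes. Of the 28-base stretches of the Hnrnpa3 coding sequence, 76.7% also occur in Gm6793, and of those of Hnrnpa1, 60.8% occur in Gm5643, both annotated as transcribed pseudogenes by RefSeq (GENCODE M21 lists Gm6793 as protein coding). Footprint-sized reads from such stretches are divided between symbols by estimation. The stretch of 75 bases from coding base 262 of Hnrnpa3 (chromosome 2) is set beside the copy on chromosome 8. It was chosen to hold exactly 3 differing bases, which are in capitals.
Hnrnpa3: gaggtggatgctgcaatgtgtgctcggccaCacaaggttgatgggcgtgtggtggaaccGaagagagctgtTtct
Gm6793: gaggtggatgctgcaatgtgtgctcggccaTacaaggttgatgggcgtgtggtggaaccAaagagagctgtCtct

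The tables gave most of these counts to the pseudogene symbol. Gm6793 was listed at 2230 and 2380 CPM in KO and 2206 and 2624 CPM in WT, and Hnrnpa3 at 251 and 241 CPM in KO and 217 and 318 CPM in WT, so its rank among the members, and that of Hnrnpa1 above it, is uncertain. Summed, the pair had 2481 and 2621 CPM in KO and 2423 and 2942 CPM in WT, and the log2 fold change was -0.06 (SE 0.18, edgeR adjusted p = 0.901) in place of -0.11. Gm5643 held 0.451 and 1.48 CPM in KO and 0.238 and 0.305 CPM in WT, and adding it left Hnrnpa1 at -0.18. Hnrnph1 shares stretches with Hnrnph2 and Hnrnph3, in 2.42% of its coding stretches in all, and the SR genes share none of this length with another symbol of the tables.

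The RNA-seq tables held too few counts for most members. They held 152195 to 219567 expected counts per library, and 3 counts corresponded to 13.7 to 19.7 CPM. The 29 genes summed to 99.4 and 139 counts in KO and 159 and 177 counts in WT, 0.0653% and 0.0804% of KO and 0.0754% and 0.0805% of WT counts. In Ribo-seq the same genes took 1.35% to 1.55% of the counts, so their share differed between the assays as well as the depth. The cause of the lower RNA-seq share was not tested. No member exceeded 24.3 counts in a library, and 12 were at 0 in at least 1 library. Which strand setting these counts used is not stated.

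Only 6 members passed the filter on low counts in RNA-seq, and 0 were called by edgeR, against 6.37% of 2087 genes tested. Of these 6, 3 had an unadjusted p below 0.05, namely Hnrnph3, Srsf2 and Hnrnpu. Each of them passed the filter only through the genotype with the higher counts. Their number can therefore not be read as an excess over the 23.1% of all genes. DESeq2 also called 0 members. Hnrnph3 had 9 and 11 counts in KO and 1 count in each WT library, which fitted as 3.46 on the log2 scale (SE 0.98, edgeR adjusted p = 0.0577). Srsf2 had 10 counts in each KO library and 4 and 3 in WT (1.79, SE 0.77, adjusted p = 0.185). Hnrnpu had 1 and 4 counts in KO and 13 and 12 in WT (-1.97, SE 0.83, adjusted p = 0.177). Hnrnpab, Hnrnpf and Hnrnpc had -0.85, -0.56 and 0.13, with adjusted p from 0.451 to 0.917.

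Of these 6 entries, 4 have exons that overlap exons of an opposite-strand gene of the tables, namely Hnrnph3 with Rufy2, Srsf2 with Mettl23 and Mfsd11, Hnrnpu with Cox20 and Hnrnpab with Phykpl. Hnrnpf overlaps 2 opposite-strand genes of the annotation that are no symbols of the tables, by 410 and 396 exon bases. Without a known strand setting, reads of such pairs cannot be told apart. Rufy2 had 83.9 and 111 counts in KO and 129 and 164 counts in WT, and Cox20 had 30 and 66 counts in KO and 36 and 25 counts in WT. Footprints per mRNA were not analysed here.

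Related genes of the splicing machinery were examined by 6 further lists, to be read against 2.44% called, 49.2% negative and a median of 0.01 over all genes. These calls come from the fit without the library number. With the number as a block, every list gene named below with a fold change had an edgeR adjusted p below 0.05. So did 24% of all genes, and the named genes were picked for their small p. Of 15 tested genes for SR kinases, arginine methyltransferases and importins, 0 were called, 10 were negative, and the median log2 fold change was -0.12 (-0.04 without KO replicate 2). Tnpo3, the importin of SR proteins, had 114 and 88.2 CPM in KO and 147.5 and 129 CPM in WT (-0.45, adjusted p = 0.184, and -0.064 with chromosome medians removed). Prmt5, which dimethylates arginines of Sm proteins, had -0.53 (adjusted p = 0.230) and Tnpo2 -0.43 (adjusted p = 0.231, and -0.21 with chromosome medians removed). Prmt5 had 157 and 122 CPM in KO and 248 and 158 CPM in WT. Its value changed with the WT library left out, to -0.17 without WT replicate 1 and -0.83 without WT replicate 2. With the block it was -0.51 (edgeR adjusted p = 0.000133).

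Of 24 tested SR-related proteins 0 were called and 17 were negative, with a median of -0.15 (-0.23 without WT replicate 2). Luc7l3, linked to the U1 particle, had -0.60 (adjusted p = 0.159), Tra2a, a splicing activator on chromosome 6, had -0.38 (adjusted p = 0.223), and Srrm2, a scaffold of nuclear speckles, had 0.54 (adjusted p = 0.251). Luc7l3 had -0.26 (adjusted p = 0.535) without WT replicate 1 and -0.88 (adjusted p = 0.0120) without WT replicate 2. With chromosome medians removed Luc7l3 had -0.35 and Tra2a 0.0020.

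Of 27 tested hnRNP proteins under other symbols, Rbmx alone was called, and 18 were negative, with a median of -0.08 (0.04 without WT replicate 1). Rbmx, which encodes hnRNP G, was listed at 7.20 and 9.89 CPM in KO and 2.40 and 2.73 CPM in WT, or 1.77 on the fitted log2 scale (SE 0.31, edgeR adjusted p = 0.0272, and 0.0931 without KO replicate 2). A near copy on chromosome 8, Rbmxl1, holds 7.42% of the 28-base stretches of the Rbmx coding sequence. Rbmxl1 was listed at 243 and 210 CPM in KO and 349 and 293 CPM in WT (-0.50, edgeR adjusted p = 0.144, and -0.27 with chromosome medians removed). The sum of both had -0.45 (SE 0.16, adjusted p = 0.168), a value set almost wholly by Rbmxl1, whose counts are far larger, and which says nothing of the direction of Rbmx itself. How many counts were divided between the symbols was not tested, so the call of Rbmx is uncertain. Most 28-base stretches of Rbmx thus do not occur in Rbmxl1. A stretch of 75 bases from coding base 782 of Rbmx is shown, with differences in capitals. It was chosen to hold exactly 3 differences, so it does not measure the likeness of the whole sequences.
Rbmx: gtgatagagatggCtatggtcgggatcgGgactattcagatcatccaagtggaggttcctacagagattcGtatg
Rbmxl1: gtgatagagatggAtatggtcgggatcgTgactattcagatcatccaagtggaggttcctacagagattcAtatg

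In that list Taf15, an RNA-binding protein found with the TFIID complex, had 132 and 163 CPM in KO and 226 and 247 CPM in WT. Its log2 fold change was -0.66 (edgeR adjusted p = 0.0860, and 0.0413 by DESeq2). With chromosome medians removed Taf15 had -0.41 (edgeR adjusted p = 0.283). It had -0.48 without KO replicate 1 and -0.72 without WT replicate 1. Ptbp2, the neuronal relative of Ptbp1, had 0.76 (edgeR adjusted p = 0.111). It had 0.56 without KO replicate 1 and 0.93 without WT replicate 1.

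Of 24 tested sequence-specific splicing regulators, Esrp1 was called and 15 were positive, with a median of 0.18 (-0.01 without KO replicate 1, 0.01 without WT replicate 2 and 0.37 without WT replicate 1). Esrp1, which drives epithelial splicing, rose to 43.1 and 50.4 CPM in KO, against 20.4 and 21.1 CPM in WT (1.19, SE 0.19, edgeR adjusted p = 0.0197), and lost its call without KO replicate 2 (1.03, adjusted p = 0.0642). Celf4, at 5.90 and 4.53 CPM in KO and 2.10 and 2.74 CPM in WT, had 1.12 (adjusted p = 0.109), Qk 0.42 (adjusted p = 0.200) and Tia1 -0.51 (adjusted p = 0.256, and -0.13 with chromosome medians removed).

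Of 46 tested snRNP proteins and U2AF genes, Usp39 was called and 37 were negative, with a median of -0.16. Usp39, needed to assemble the tri-snRNP, fell to 82.9 and 76.9 CPM in KO, against 135 and 130 CPM in WT (-0.72, SE 0.14, edgeR adjusted p = 0.0392). It lies on chromosome 6 and lost its call with chromosome medians removed (-0.34, adjusted p = 0.288), without KO replicate 1 (-0.73, adjusted p = 0.177) and without KO replicate 2 (-0.71, adjusted p = 0.157), where the fold stayed about as large. Snrpg (-0.53, adjusted p = 0.108), Snrpd3 (-0.47, adjusted p = 0.166), both of the Sm ring, and Eftud2 (-0.39, adjusted p = 0.203), a U5 GTPase, did not pass the test. With chromosome medians removed Snrpg had -0.15 and Eftud2 -0.14.

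Of 15 nonsense-mediated decay and exon junction genes 0 were called and 13 were negative. The median was -0.34. Removing chromosome medians or leaving out WT replicate 1 brought it to -0.18, and leaving out KO replicate 2 to -0.21. Magohb, an exon junction subunit, had 14.5 and 20.02 CPM in KO and 31.3 and 37.5 CPM in WT (-0.97, SE 0.23, adjusted p = 0.0638, and 0.0276 by DESeq2). It was called without WT replicate 1 (-1.09, adjusted p = 0.00438) and without KO replicate 2 (-1.28, adjusted p = 0.0348), and not without KO replicate 1 (-0.72, adjusted p = 0.322). Upf3a had 18.2 and 19.2 CPM in KO and 30.8 and 29.04 CPM in WT (-0.66, adjusted p = 0.102), and Smg6, an endonuclease of the pathway, had -0.47 (adjusted p = 0.173). With chromosome medians removed Magohb had -0.59, Upf3a -0.44 and Smg6 -0.22.

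**Figure D5:**
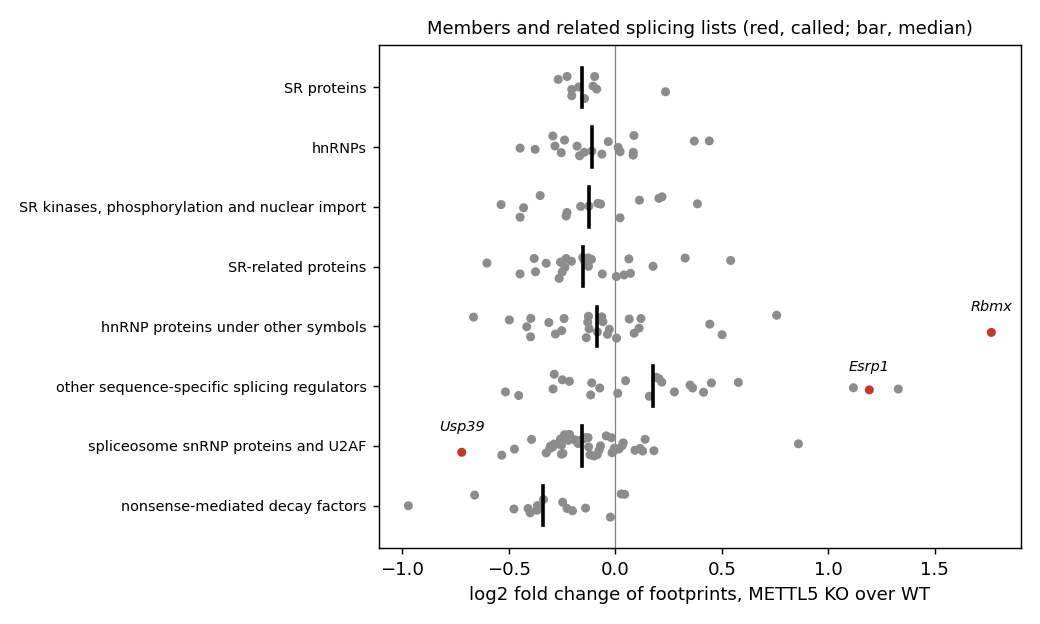
Log2 fold change of footprints, METTL5 KO over WT, of each tested gene of the SR proteins, the hnRNPs and the 6 related lists, with called genes in red and medians as bars. Medians lie between -0.34 and 0.18, and Rbmx, Esrp1 and Usp39 are the called genes.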

How the data were processed

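RNA-seq and Ribo-seq were measured in METTL5 KO and WT mouse embryonic stem cells, 2 libraries per genotype and assay. Bowtie2 2.3.4.3, RSEM and mm10 are listed per the submitters' processing notes, which say nothing of strand. The authors' deposited tables give expected counts, TPM values and effective lengths per gene symbol, per the file headers. Expected counts were rounded for tests, and the deposited TPM entered 1 alternative. KO was compared with WT in each assay with edgeR 4.0.16 (robust quasi-likelihood, TMM, filterByExpr, Benjamini-Hochberg over all genes tested, called below an adjusted p of 0.05), after a test on simulated data. Standard errors came from the F statistics, with 95% intervals from the t distribution. Alternatives were DESeq2 1.42.0, limma-voom (limma 3.58.1), other scalings and filters, a replicate block, chromosome medians removed, summed near copies and leaving out each library. Coding sequences were the longest GENCODE M21 transcripts matching a deposited accession. Of each list the called genes and up to 3 others with the smallest p were named. Members and lists were chosen with earlier results of these data known.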

Additional observations from a re-analysis of the deposited data

How the results depend on the processing

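With the replicate number as a block, 4 members were called in Ribo-seq in place of 0, 13.8% of them against 24% of all genes: Hnrnpa0 (0.43), Hnrnpdl (-0.44), Hnrnpf (-0.37) and Hnrnph3 (0.37). Deviations of same-numbered libraries from their group means correlated by 0.355 across genes. With 2 libraries per group, unlike-numbered libraries must give the same value with the opposite sign. Only the sign thus depends on the numbering, and the value cannot show what the number stands for. The labels give the number no meaning, while same-numbered tables share a tag of the form of a month and a day. If that tag marks a shared culture, the replicate block is the fitting design, with its 4 calls in place of 0. This could not be settled here. The block was not fitted with chromosome medians removed, which without the block left Hnrnpf at 0.0064. With the block, calls in the 6 related lists were counted in the order given above. They were 5 of 15, 7 of 24, 10 of 27, 6 of 24, 9 of 46 and 7 of 15 tested genes. The share over all genes was 24%. With no filter, Luc7l3, Srrm2, Taf15, Ptbp2, Celf4, Magohb and Upf3a of these lists also passed the threshold. That setting raised the calls over all genes to 1110 of 17328, from 301 of 12315, and called 0 members. The call count was 0 under the 11 other Ribo-seq alternatives, and the median of the members ranged from -0.15 to -0.08 when a library was left out. In RNA-seq 1 member, Hnrnph3, was called with no filter, where 196 of 15138 genes were called. The call rests on 9 and 11 counts in KO and 1 count in each WT library. The RNA-seq replicate block called 0 members and 155 of 2087 genes, and a mean count of at least 50 left no member. With chromosome medians removed the sign turned for Srsf1 (0.085), Srsf2 (0.17), Hnrnpab (0.018), Hnrnpd (-0.035), Hnrnpf (0.0064), Hnrnph1 (0.19), Hnrnpl (-0.056), Hnrnpll (-0.012), Hnrnpul2 (-0.00019) and Tra2a (0.0020). When a library was left out, values that changed sign ranged from -0.68 to 0.79 for Srsf2, -0.43 to 0.016 for Srsf4, -0.41 to 0.31 for Srsf6, -0.21 to 0.014 for Srsf10, -0.44 to 0.043 for Hnrnpa1, -0.36 to 0.19 for Hnrnpa3, -0.041 to 0.088 for Hnrnpd, -0.15 to 0.035 for Hnrnph1, -0.054 to 0.082 for Hnrnpl and -0.081 to 0.27 for Hnrnpul2. Summed with the far more abundant Rbmxl1, Rbmx stood at -0.45. The causes were not tested. Under 12 alternatives for each member, 323 values kept direction and side of the threshold, 21 turned sign and 4 passed the threshold. The low RNA-seq counts of the members limit every statement on that assay.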
